A study of Rattus norvegicus with 9 samples.

Results

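The MS and EA rats of this study had all been separated from their mothers as pups, and differences from Control rats that appeared in both groups are described here. All 9 rats with RNA-seq data were used. The comparison set 6 separated rats, 3 of the MS group and 3 of the EA group (labelled MS+EA), against the 3 Control rats, and each rat was placed by the group that its label gives. Separation lasted 4 h per day from PND 1 to PND 21, and the Control litters were left undisturbed. The rats were Wistar males, and their prefrontal cortex, labelled as frontal cortex, was taken at 14 weeks of age. EA rats had received electroacupuncture at the head acupoints Baihui and Yintang every other day from PND 61 to PND 81. EA was given under isoflurane, and Control and MS rats had been anesthetized without electroacupuncture. No sham EA rat was among those sequenced. The labels and methods do not say which rats were littermates, so p values measure the spread between these rats, and separation cannot be told apart from differences between litters or dams.

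Maternal separation is a widely used model of early-life stress, in which absence of the dam alters warmth, feeding and stress hormone signalling of the pup while its cortex is still forming synapses and myelin. The prefrontal cortex regulates stress responses and motivated behaviour. Its neurons depend on mitochondrial ATP, on calcium handling by mitochondria and on the secretory traffic that places receptors at the cell surface. The comparison asks which genes differed in the adult cortex of separated rats whether or not they had received EA.

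Markers of cortical projection neurons summed to 4381 to 5157 CPM in Control rats and 3874 to 4624 CPM in separated rats, so the defining neurons of the labelled tissue were present in every library. Each library held between 12479905 and 19007907 counts, and each EA rat had fewer counts than each other rat. Expression is given as CPM, counts scaled to 1000000 per library after TMM normalization, and values are listed rat by rat, A1, A2, A6 (Control), B3, B4, B6 (MS) and C3, C10, C16 (EA). SE is the standard error. The sum of 9 meningeal fibroblast markers was 50.0 to 60.8 CPM in Control rats and 69.5 to 545 CPM in separated rats, without overlap. It was highest in the MS rat B4, followed by the EA rats C16 and C3.

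In the separated rats, 83 genes were higher and 6 were lower than in Control rats with an edgeR adjusted p under 0.05 and more than a 1.5-fold change. The higher genes included ATP8 of the mitochondrial genome, the calcium uptake regulator Micu3, the protocadherin Pcdh7, the growth factor Igf1 and the neighbouring genes Acsm3, Acsm5 and Pdilt. The lower genes included the Tpt1 relative LOC100360791, the ribosomal RNA precursor Rn45s and the immediate early genes Junb and Fosb. The 89 genes were 0.529% of the 16837 tested, with 0.493% higher and 0.0356% lower, and an unadjusted p under 0.05 was reached by 3150 genes. All 6 separated rats lay above all 3 Control rats for 80 of the 83 higher genes, against 5.28% of all tested genes. They lay below all Control rats for 3 of the 6 lower genes, against 3.60% of all tested genes. The genes were chosen by this contrast, so these counts describe them and were not tested.

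The size of the change was modest for most genes. A log2 fold change under 1 was found for 56 of the 83 higher genes and one of at least 1 for 27. Their median was 0.81, and the median of all tested genes was -0.00347. Relative to the Control mean, the median of the 83 genes on the log2 scale was 0.54 in B3, 0.77 in B4, 0.75 in B6, 0.83 in C3, 1.04 in C10 and 0.86 in C16. The MS rat B3 was thus nearest to the Control rats, with the lowest value of the 6 separated rats for 43 of the 83 genes, and the EA rat C10 was farthest, with the highest value for 49.

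The number of calls changed with which rats were included. Without A2 only ATP8 and LOC100360791 passed both thresholds, without A1 10 genes passed and without A6 42. Without the MS rat B6 47 genes passed, and without the MS rat B3 149. Without each of the other separated rats 69 to 115 genes passed. In each fit without 1 rat all 89 genes kept their direction and an unadjusted p under 0.05, and 80 to 88 of them kept a fold above 1.5. The called genes described below, other than ATP8 and LOC100360791, thus passed both thresholds only with A2 included.

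A gene was counted as shared if its fold change against Control exceeded 1.5 in the same direction in MS rats and in EA rats, each group taken alone. This held for 61 of the 89 genes, 56 higher and 5 lower, and all 89 had the same sign in both groups. Among the 28 others, 27 missed the fold in MS rats. The remaining gene, LOC100912294, named here because it was the single one, missed it in EA rats. The same Control rats entered both comparisons. MS rats alone differed from Control rats in 4 genes (0.0238% of genes tested), namely ATP8, Acsm3, Slco1a2 and LOC100360791. EA rats alone differed from Control rats in 230 genes (1.37%).

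**Figure D1:**
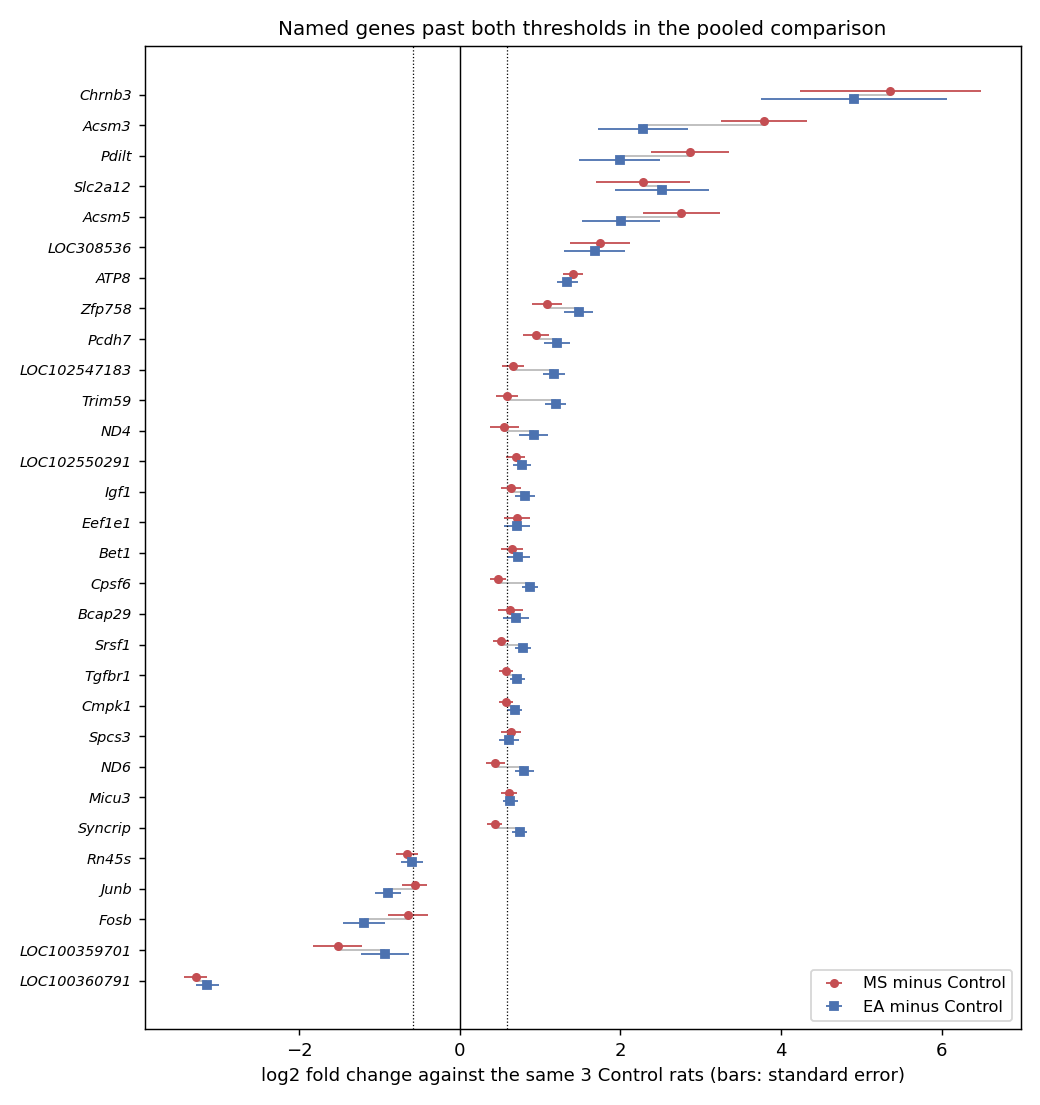
Log2 fold changes of the 30 named genes past both thresholds, for MS minus Control (red circles) and EA minus Control (blue squares), with standard errors as bars. Dotted lines mark a fold of 1.5, and in every row both symbols lie on the same side of 0.

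The mitochondrial genome supplies core subunits of the respiratory chain, and 3 of its 13 protein-coding genes were raised, where 0.493% of all tested genes were higher. ATP8, a small subunit of ATP synthase, measured 122, 95.2 and 132 CPM in the Control rats, 316, 289 and 326 CPM in the MS rats and 251, 343 and 291 CPM in the EA rats. Every separated rat was far above every Control rat, and MS and EA rats lay together. The log2 fold change was 1.38 (SE 0.115, edgeR adjusted p = 2.44e-04), with 1.41 in MS and 1.34 in EA rats. EA minus MS was -0.07, with a 95% interval from -0.34 to 0.19, inside a fold of 1.5.

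ND4 and ND6 encode subunits of complex I. ND6 measured 462, 538 and 602 CPM in the Control rats, 692, 646 and 840.0 CPM in the MS rats and 828, 1050 and 922 CPM in the EA rats, with a log2 fold change of 0.62 (SE 0.106, edgeR adjusted p = 0.0170). ND4 measured 133, 148 and 132 CPM in the Control rats, 189, 217 and 201 CPM in the MS rats and 180.0, 244 and 358 CPM in the EA rats, with a log2 fold change of 0.74 (SE 0.158, edgeR adjusted p = 0.0355). For both genes the groups did not overlap, and the highest ND4 value, in the EA rat C16, stood well apart from the other rats. Against Control ND6 had 0.44 in MS and 0.80 in EA rats, and ND4 had 0.56 in MS and 0.92 in EA rats. Neither gene thus reached a fold of 1.5 in MS rats alone. ATP6, whose reading frame overlaps that of ATP8, had a log2 fold change of 0.46 (SE 0.0811, edgeR adjusted p = 0.0191), short of the fold threshold. How the counting shared reads between overlapping mitochondrial genes is not known, so these values are of the reads assigned to each gene. Of the 13 genes 9 had a positive and 4 a negative log2 fold change, with a median of 0.16. COX1, the most abundant of those given here with a mean of 18387 CPM in Control rats, had -0.00237. The 13 genes together held 3.05% to 3.14% of counts in Control rats, 3.26% to 3.80% in MS rats and 2.82% to 3.10% in EA rats (exact permutation test over 84 splits, two-sided p = 0.571, BH adjusted p = 0.571, smallest possible p = 0.0238). Rnr2, a mitochondrial ribosomal RNA outside the 13 and named after its values were seen, measured 457, 234 and 372 CPM in the Control rats, 511, 633 and 676 CPM in the MS rats and 592, 931 and 559.8 CPM in the EA rats after rRNA depletion, with a log2 fold change of 0.87 (SE 0.201, edgeR adjusted p = 0.0487). Nuclear genes of oxidative phosphorylation had 0 calls among 27 tested, with a median of -0.04.

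Mitochondrial calcium uptake passes through the uniporter, which MICU proteins gate. Micu3, the brain-enriched member, measured 74.4, 86.3 and 83.8 CPM in the Control rats, 119, 124 and 131 CPM in the MS rats and 111, 145 and 122 CPM in the EA rats. All separated rats were above all Control rats, and the log2 fold change was 0.62 (SE 0.0847, edgeR adjusted p = 0.00831). It was 0.61 in MS and 0.63 in EA rats, and EA minus MS was 0.02, with a 95% interval from -0.19 to 0.22. The pore-forming Mcu had -0.09 (edgeR adjusted p = 0.700). Among the 9 tested genes of calcium uptake and uncoupling, Micu3 was the only one called, where 0.529% of all tested genes were called. An edgeR adjusted p under 0.05 in the lower direction was reached by 1 other member, which missed the fold. Of the 9 genes 5 had a positive and 4 a negative log2 fold change, with a median of 0.00922.

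**Figure D2:**
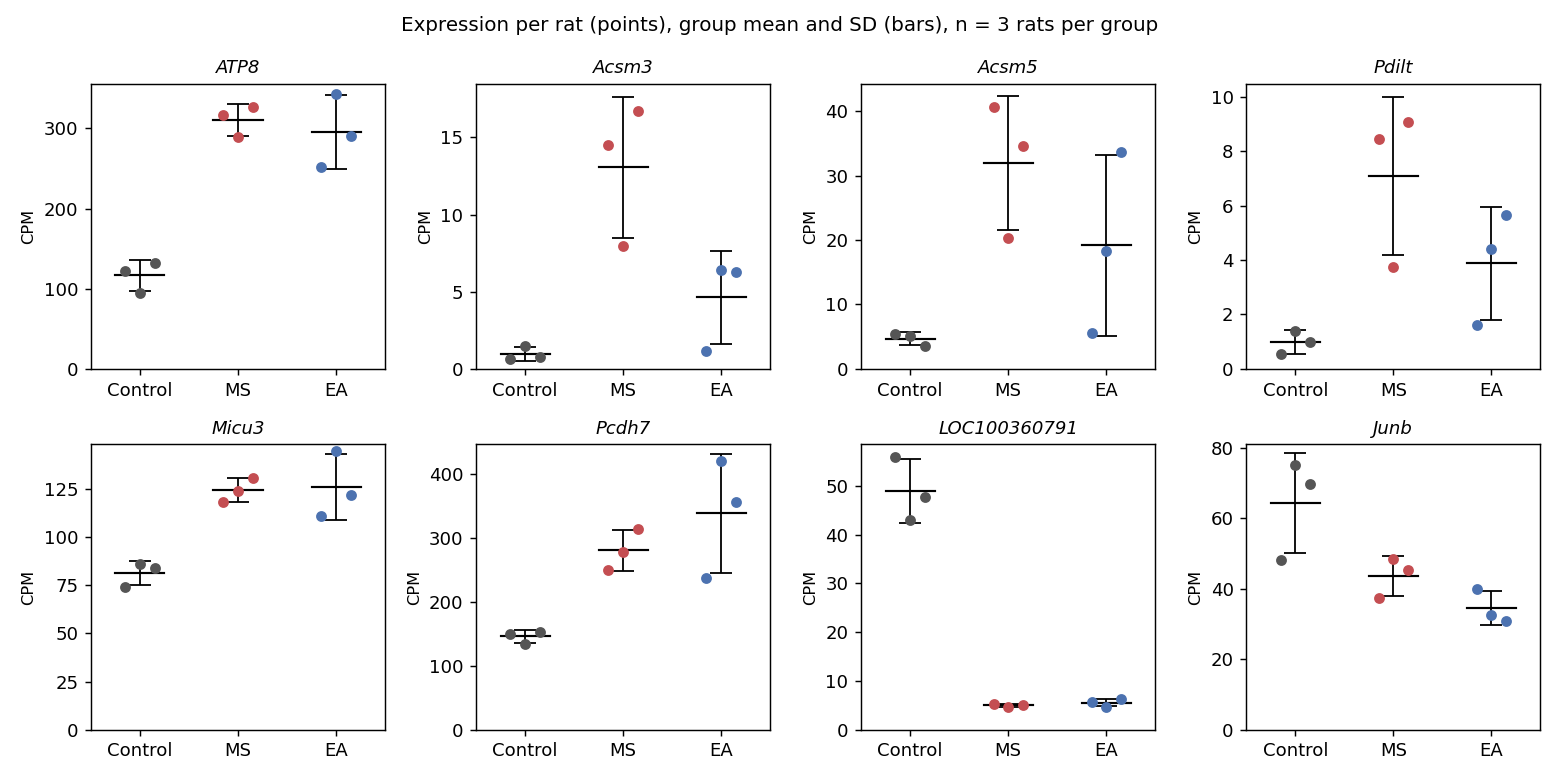
CPM of 8 called genes in each rat (points), with the mean and SD of each group (n = 3 rats) as a bar. The EA rat C3 lies near the Control rats for Acsm3, Acsm5 and Pdilt, and for LOC100360791 all 6 separated rats lie between 4.69 and 6.20 CPM.

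Acsm3 and Acsm5 encode mitochondrial enzymes that couple medium-chain fatty acids to coenzyme A, and Pdilt encodes a protein disulfide isomerase relative known from testis. In the RefSeq promoter table of build GRCr8, which is not the build on which the reads were mapped, the starts of Pdilt on the minus strand and Acsm5 on the plus strand lie 2487 bases apart on chromosome 1. The start of Acsm3 lies 262143 bases beyond that of Acsm5. The 3 promoter windows, from 250 bases before to 50 after each start, are shown because these neighbours rose together. Capitals mark CCAAT or its reverse complement ATTGG, and TATAA or its reverse complement TTATA, which overlap in TTATAA.
Acsm3: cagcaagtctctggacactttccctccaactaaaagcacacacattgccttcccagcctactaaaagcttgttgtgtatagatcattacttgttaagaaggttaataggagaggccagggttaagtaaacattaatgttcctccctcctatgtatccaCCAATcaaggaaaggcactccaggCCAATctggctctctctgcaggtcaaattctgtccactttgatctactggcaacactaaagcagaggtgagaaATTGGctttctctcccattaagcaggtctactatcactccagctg
Acsm5: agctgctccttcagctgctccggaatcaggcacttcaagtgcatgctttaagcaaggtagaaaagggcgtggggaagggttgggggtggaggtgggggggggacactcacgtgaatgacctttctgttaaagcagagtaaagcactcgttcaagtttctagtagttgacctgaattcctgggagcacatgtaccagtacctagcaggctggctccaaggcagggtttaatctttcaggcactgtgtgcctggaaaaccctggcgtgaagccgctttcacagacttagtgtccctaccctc
Pdilt: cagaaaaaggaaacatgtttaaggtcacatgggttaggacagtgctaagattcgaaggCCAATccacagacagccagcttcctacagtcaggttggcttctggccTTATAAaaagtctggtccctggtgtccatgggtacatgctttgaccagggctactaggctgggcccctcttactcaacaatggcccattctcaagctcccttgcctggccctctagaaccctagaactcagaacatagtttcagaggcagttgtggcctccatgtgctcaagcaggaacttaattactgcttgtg
The windows are chr1:183564402-183564701 (plus strand), chr1:183302259-183302558 (plus strand) and chr1:183299973-183300272 (minus strand). CCAAT in either orientation occurred 3 times in the Acsm3 window, starting at positions -92, -68 and 6 from the start. It occurred once in the Pdilt window, at -192, and was not found in the Acsm5 window. TATAA in either orientation was found in the Pdilt window alone. Of 33469 promoter windows of this length in the table, 37.5% held CCAAT or ATTGG and 26.2% held TATAA or TTATA.

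Acsm3 had 12, 24 and 12 reads (Control), 249, 127 and 278 reads (MS) and 17, 96 and 79 reads (EA). The MS rats had the highest counts, and the EA rat C3, with 17 reads, lay within the Control range. The log2 fold change was 3.03 (SE 0.506, edgeR adjusted p = 0.0158), with 3.78 in MS and 2.28 in EA rats. EA minus MS was -1.501, with a 95% interval from -2.48 to -0.52 (unadjusted p = 0.00576, edgeR adjusted p = 0.246). Acsm3 was thus the one called gene that lay nearer to Control in EA rats at an unadjusted p under 0.05.

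Acsm5 measured 5.46, 5.06 and 3.61 CPM in the Control rats, 40.7, 20.4 and 34.6 CPM in the MS rats and 5.62, 18.2 and 33.6 CPM in the EA rats. C3 was again lowest among the separated rats and was barely above the highest Control rat. The log2 fold change was 2.38 (SE 0.444, edgeR adjusted p = 0.0218), and EA minus MS was -0.75, with a 95% interval from -1.68 to 0.18. Pdilt had 10, 23 and 16 reads (Control), 145, 60 and 151 reads (MS) and 23, 66 and 71 reads (EA), and its log2 fold change was 2.43 (SE 0.454, edgeR adjusted p = 0.0218). For all 3 genes the order of the separated rats put C3 last. Without C3 the log2 fold changes were 3.27 for Acsm3, 2.60 for Acsm5 and 2.62 for Pdilt. Of 6 listed medium-chain acyl-CoA synthetase genes, only these 2 were tested.

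Among genes that act at the cell surface, Pcdh7, a delta protocadherin of synaptic adhesion, measured 150.02, 134 and 154 CPM in the Control rats, 251, 278 and 314 CPM in the MS rats and 238, 421 and 357 CPM in the EA rats. The groups did not overlap, and the log2 fold change was 1.08 (SE 0.145, edgeR adjusted p = 0.00831). It was 0.95 in MS and 1.22 in EA rats. The other 8 tested delta protocadherins were not called, where 0.529% of all tested genes were called, and the median of the 9 was -0.11. Tgfbr1, a receptor of TGF-beta, measured 41.7, 42.1 and 40.5 CPM in the Control rats, 57.4, 65.5 and 62.6 CPM in the MS rats and 69.4, 59.7 and 75.6 CPM in the EA rats. Its log2 fold change was 0.65 (SE 0.0812, edgeR adjusted p = 0.00831). It was 0.577 in MS rats, just short of the fold threshold, and 0.72 in EA rats. The pooled value fell to 0.53, under the fold threshold, without B4, C3 and C16, a fit that left C10 as the only EA rat.

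Igf1, a growth factor that supports neuronal survival and myelination, measured 13.0, 13.0 and 13.5 CPM in the Control rats, 18.1, 23.5 and 19.96 CPM in the MS rats and 24.9, 20.3 and 24.01 CPM in the EA rats. The Control rats were almost level and every separated rat was higher. The log2 fold change was 0.72 (SE 0.110, edgeR adjusted p = 0.0110), with 0.64 in MS and 0.81 in EA rats. Without B4, C3 and C16 it was 0.57, just under the fold threshold. Igf1 was the only called gene among the 11 tested of the insulin-like growth factor system, whose median was 0.06, where 0.529% of all tested genes were called.

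Proteins for the membrane and for release enter the endoplasmic reticulum (ER), lose their signal peptide and leave in vesicles for the Golgi. Of 21 tested genes of this route 3 were raised, where 0.493% of all tested genes were higher, and none was lowered. Regardless of the test, 17 had a positive log2 fold change, and the median was 0.09. Spcs3, a subunit of signal peptidase, measured 26.0, 27.0 and 29.0 CPM in the Control rats, 38.0, 41.8 and 47.7 CPM in the MS rats and 35.2, 50.3 and 39.7 CPM in the EA rats, with a log2 fold change of 0.63 (SE 0.114, edgeR adjusted p = 0.0200). Bcap29, an ER membrane protein, had 0.66 (SE 0.140, edgeR adjusted p = 0.0335), and Bet1, a SNARE of ER-to-Golgi vesicles, had 0.69 (SE 0.126, edgeR adjusted p = 0.0205). Bet1 fell to 0.54, under the fold threshold, without B4, C3 and C16. In all 3 genes every separated rat was above every Control rat, as in 5.28% of all tested genes. EA minus MS of Spcs3 was -0.03, with a 95% interval from -0.30 to 0.25. Sec62 with 0.40, Ssr1 with 0.45 and Tmed7 with 0.37 had adjusted p values of 0.0145, 0.0275 and 0.0337 and missed the fold. Among 14 chaperone genes, only Pdilt was called.

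Cpsf6, Srsf1 and Syncrip, which act on mRNA, are set together here after their values were seen, and no list of such genes was examined. Cpsf6, a cleavage and polyadenylation factor, measured 190.1, 189.8 and 219 CPM in the Control rats, 252, 286 and 295 CPM in the MS rats and 346, 419 and 328 CPM in the EA rats, and its log2 fold change was 0.67 (SE 0.0876, edgeR adjusted p = 0.00831). Srsf1, a splicing factor, had 0.65 (SE 0.0881, edgeR adjusted p = 0.00831), and Syncrip, an RNA-binding protein of neuronal transport granules, had 0.59 (SE 0.0800, edgeR adjusted p = 0.00831). EA minus MS was 0.39 for Cpsf6, 0.27 for Srsf1 and 0.31 for Syncrip, and none of the 3 reached a fold of 1.5 in MS rats alone. Cmpk1, a kinase that makes pyrimidine nucleoside diphosphates, measured 58.4, 53.1 and 57.6 CPM in the Control rats, 78.7, 85.1 and 88.5 CPM in the MS rats and 79.8, 101 and 90.4 CPM in the EA rats, with a log2 fold change of 0.63 (SE 0.0797, edgeR adjusted p = 0.00831). It was 0.578 in MS rats, just short of the fold threshold, and 0.68 in EA rats.

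Zinc-finger genes, many of which encode DNA-binding repressors, are described as a group. It was formed after the values were seen, from symbols that begin with Zfp or Znf in the table or in RefSeq. Of 353 tested, 11 were higher (3.12%) and none lower, beside 0.493% of all genes higher, and the median of the 353 was 0.09. The 11 include LOC102555051 (Znf431l-ps8) and LOC102554200 (Zfp35-ps1), which RefSeq names as pseudogenes. LOC102554200 is typed miscRNA and is also counted among the non-coding genes below. Zfp758 measured 3.05, 2.32 and 2.36 CPM in the Control rats, 5.95, 5.13 and 5.35 CPM in the MS rats and 6.87, 7.77 and 6.995 CPM in the EA rats, with no overlap and a log2 fold change of 1.28 (SE 0.167, edgeR adjusted p = 0.00831). LOC102550291, now named Zfp950, measured 8.35, 9.15 and 8.64 CPM in the Control rats, 14.6, 13.3 and 14.4 CPM in the MS rats and 15.3, 15.3 and 14.1 CPM in the EA rats. Its log2 fold change was 0.74 (SE 0.102, edgeR adjusted p = 0.00867), and EA minus MS was 0.08, with a 95% interval from -0.17 to 0.32. Related zinc-finger genes have near-identical sequence, and how the counting shared their reads is not known. Trim59, which encodes a RING-type ubiquitin ligase, measured 5.78, 6.34 and 5.78 CPM in the Control rats, 9.39, 9.38 and 8.18 CPM in the MS rats and 13.8, 14.7 and 12.4 CPM in the EA rats, and its log2 fold change was 0.89 (SE 0.122, edgeR adjusted p = 0.00831). Against Control it was 0.59 in MS and 1.19 in EA rats.

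Among the lower genes LOC100360791 had the smallest adjusted p. It is typed as miscRNA in the table and named Tpt1l3 in RefSeq, a relative of Tpt1, which encodes the translationally controlled tumor protein. It had 1045, 704 and 767 reads (Control), 91, 75 and 83 reads (MS) and 83, 70 and 78 reads (EA). The 6 separated rats were nearly level, and the log2 fold change was -3.21 (SE 0.110, edgeR adjusted p = 9.67e-09). EA minus MS was 0.15, with a 95% interval from -0.19 to 0.48, inside a fold of 1.5. Tpt1 itself measured 215, 212 and 199 CPM in the Control rats, 261, 284 and 287 CPM in the MS rats and 294, 274 and 344 CPM in the EA rats and had 0.48 (SE 0.0732, edgeR adjusted p = 0.0110), the opposite direction and short of the fold threshold. How the counting shared reads between these relatives is not known. Eef1e1, a scaffold of the tRNA synthetase complex, was the other called gene of this list, with 0.72 (SE 0.143, edgeR adjusted p = 0.0272), and the median of its 9 tested members was -0.10.

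Rn45s, the precursor of ribosomal RNA, measured 606, 555 and 769 CPM in the Control rats, 398, 337 and 489.6 CPM in the MS rats and 438, 426 and 413 CPM in the EA rats, with a log2 fold change of -0.63 (SE 0.112, edgeR adjusted p = 0.0193). The libraries had been depleted of ribosomal RNA, so this value is of what depletion left. LOC100359701, a pseudogene of Ranbp3, measured 5.19, 4.39 and 4.23 CPM in the Control rats, 1.63, 1.06 and 2.10 CPM in the MS rats and 1.53, 3.08 and 2.62 CPM in the EA rats, with a log2 fold change of -1.23 (SE 0.252, edgeR adjusted p = 0.0312). Gtpbp6, named here to complete the 6 lower genes, had 136, 80 and 9 reads (Control), 7, 13 and 9 reads (MS) and 4, 7 and 6 reads (EA). Its Control rat A6 lay inside the separated range, so its log2 fold change of -3.11 (SE 0.557, edgeR adjusted p = 0.0196) rests on A1 and A2.

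Immediate early genes are transcribed within minutes of neuronal activity. All 16 tested had a negative log2 fold change, with a median of -0.43, and 2 passed the test, both lower, where 0.0356% of all tested genes were lower. Their sum was 648, 1088 and 1058 CPM in the Control rats and 508 to 868 CPM in the separated rats, so A1 lay inside the separated range. In 0 of the 16 genes did all separated rats lie below all Control rats, where 3.60% of all tested genes showed this. Junb measured 48.2, 75.0 and 69.6 CPM in the Control rats, 37.3, 48.3 and 45.2 CPM in the MS rats and 39.9, 32.6 and 30.9 CPM in the EA rats. The MS rat B4 and the Control rat A1 were level and the other separated rats were below all Control rats, and the log2 fold change was -0.73 (SE 0.132, edgeR adjusted p = 0.0200). It was -0.56 in MS rats, short of the fold threshold, and -0.90 in EA rats. Fosb measured 12.1, 20.5 and 30.1 CPM in the Control rats, 12.9, 14.9 and 12.2 CPM in the MS rats and 11.03, 8.24 and 8.11 CPM in the EA rats, with A1 again among the separated rats and a log2 fold change of -0.92 (SE 0.215, edgeR adjusted p = 0.0499). Without A1 the values were -0.90 for Junb and -1.20 for Fosb, and without A6 the value of Fosb was -0.56. Without B4, C3 and C16 Fosb had -1.03. Fos had -0.83 (edgeR adjusted p = 0.131), Egr1 -0.20 (edgeR adjusted p = 0.598) and Arc -0.42 (edgeR adjusted p = 0.365).

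The largest fold changes included genes that followed the meningeal marker sum. Slc2a12, a glucose transporter, measured 2.57, 3.66 and 2.49 CPM in the Control rats, 5.71, 27.5 and 9.26 CPM in the MS rats and 15.8, 6.57 and 27.9 CPM in the EA rats, and B4, C3 and C16 were highest. Its log2 fold change was 2.40 (SE 0.542, edgeR adjusted p = 0.0450), and without those 3 rats it was 1.27. With the log2 marker sum as a covariate it was 0.81 and was not called (edgeR adjusted p = 0.135). Chrnb3, a nicotinic acetylcholine receptor subunit, had 2, 3 and 0 reads (Control), 15, 170 and 25 reads (MS) and 51, 21 and 58 reads (EA). The Control rats were at or under a floor of 3 reads. Over all reads of each group the ratio of separated to Control was 37.9, with an exact 95% counting interval from 16.1 to 118, and 170 of the 340 reads in separated rats came from B4. The fitted log2 fold change was 5.13 (SE 1.08, edgeR adjusted p = 0.0329), and without B4, C3 and C16 it was 3.63. With the covariate it was 2.84 (edgeR adjusted p = 0.0706).

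Lepr, the leptin receptor, and Cped1, a gene of little known function, are added here because, as seen after the values were known, they were highest in the same 3 rats. A fall of both genes without those rats or with the covariate follows largely from that choice and is not a test. Lepr measured 6.48, 5.85 and 5.91 CPM in the Control rats, 8.22, 27.4 and 13.2 CPM in the MS rats and 20.5, 12.5 and 20.4 CPM in the EA rats, with a log2 fold change of 1.48 (SE 0.318, edgeR adjusted p = 0.0355), and without the 3 rats it was 0.92. Cped1 measured 4.50, 4.76 and 4.10 CPM in the Control rats, 8.28, 29.2 and 8.72 CPM in the MS rats and 13.9, 8.78 and 17.1 CPM in the EA rats, with 1.68 (SE 0.393, edgeR adjusted p = 0.0498), and 0.95 without the 3 rats. With the covariate Lepr had 0.57 (edgeR adjusted p = 0.137) and Cped1 0.57 (edgeR adjusted p = 0.209), so neither was called. The 9 meningeal markers themselves were all higher, with a median of 2.10 and 0 called, and Col1a1, a collagen, measured 6.96, 7.68 and 6.34 CPM in the Control rats, 8.57, 72.8 and 19.8 CPM in the MS rats and 27.2, 8.58 and 45.5 CPM in the EA rats. Pericyte and smooth muscle markers summed to 131 to 143 CPM in Control rats and 149 to 291 CPM in separated rats, and red blood cell genes to 67.9 to 140.1 CPM in Control rats and 151 to 220.3 CPM in separated rats, again without overlap. With B4, C3 and C16 left out, C10 was the only EA rat, so only fold changes are given for that fit. In it all 89 genes kept their direction and 80 kept a fold above 1.5. Of the genes named in the text, Rn45s (-0.57), Bet1 (0.54), Igf1 (0.57) and Tgfbr1 (0.53) fell short of that fold. The marker sum did not overlap between Control and separated rats, so a covariate fit cannot cleanly tell it from separation. Calls kept or lost in that fit are thus described and do not settle what a gene follows. With the log2 marker sum as a covariate, 18 of the 89 were among 25 called, all 89 kept their direction and 72 kept a fold above 1.5. These 18 included ATP8, ND6, Micu3, Acsm3, Pdilt, Pcdh7, Cpsf6, Srsf1, Cmpk1, Trim59, Zfp758, LOC102550291, LOC102547183 and LOC100360791. Among those that fell under the fold with the covariate were ND4 (0.55), Igf1 (0.52), Tgfbr1 (0.498), Bet1 (0.48) and Rn45s (-0.49). Spcs3, Bcap29 and Eef1e1 were among those that kept the fold but were no longer called. In bulk RNA, more cells of a type and more RNA per cell cannot be told apart.

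**Figure D3:**
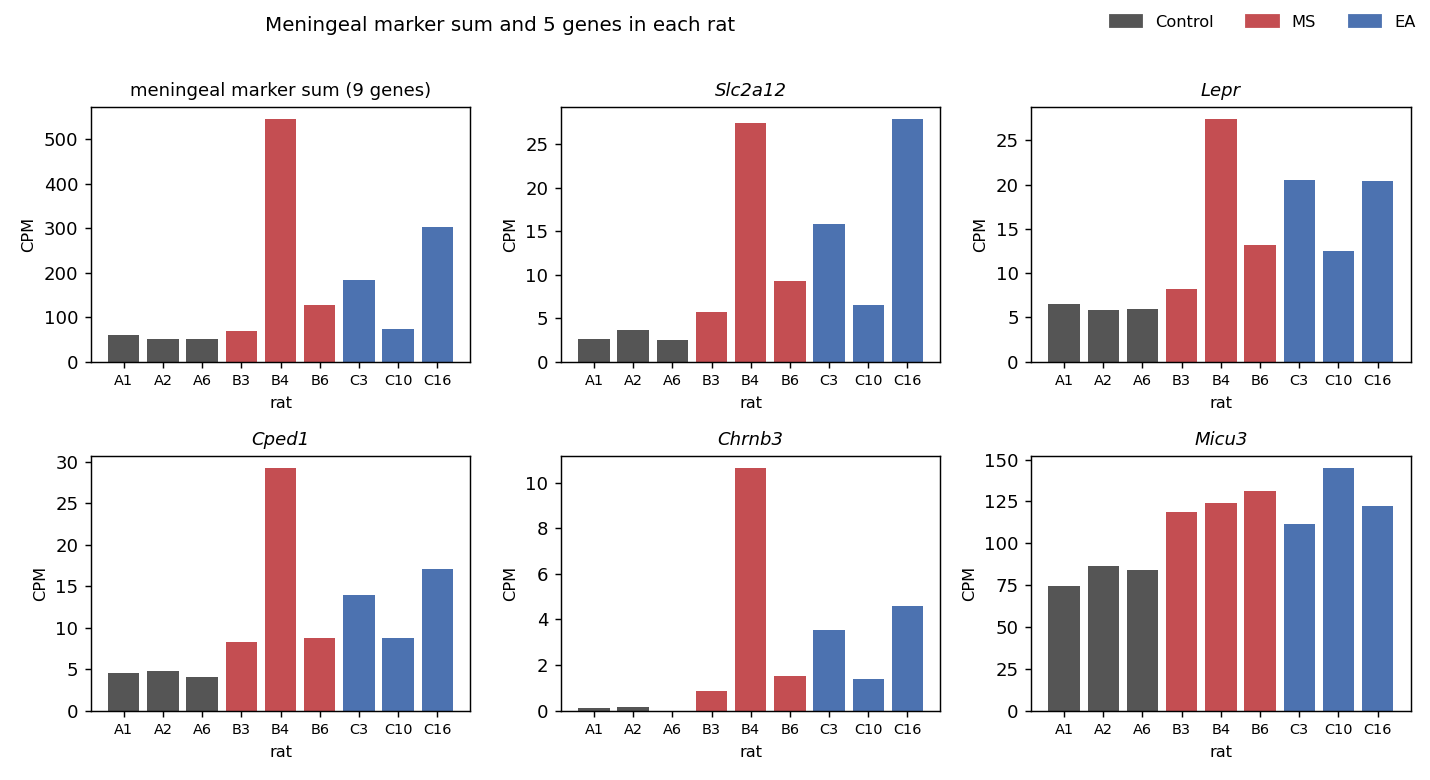
CPM in each rat for the summed meningeal markers and for 5 called genes, with bars from 0 coloured by group. Slc2a12, Lepr, Cped1 and Chrnb3 are highest in B4, C3 and C16, whereas Micu3 lies between 111 and 145 CPM in all 6 separated rats.

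Of 2146 tested genes with a non-coding type (lncRNA, ncRNA or miscRNA), 19 were higher and 2 lower, where 0.493% of all tested genes were higher and 0.0356% lower, and 12 of the higher ones were typed lncRNA. LOC102547183, an lncRNA, measured 61.9, 58.4 and 84.3 CPM in the Control rats, 107, 101 and 116 CPM in the MS rats and 159, 176 and 127 CPM in the EA rats. Its log2 fold change was 0.92 (SE 0.124, edgeR adjusted p = 0.00831), with 0.66 in MS and 1.18 in EA rats. LOC308536, typed as ncRNA, measured 0.482, 0.427 and 0.497 CPM in the Control rats, 1.17, 1.75 and 1.86 CPM in the MS rats and 1.39, 1.21 and 1.99 CPM in the EA rats, with a log2 fold change of 1.71 (SE 0.341, edgeR adjusted p = 0.0273). Its values stayed under 2 CPM in every rat. The 1302 tested lncRNAs had a median log2 fold change of 0.00115 in MS and 0.19 in EA rats against Control. Non-coding genes held 1.62% to 1.81% of counts in Control rats, 1.70% to 1.85% in MS rats and 1.90% to 2.13% in EA rats (exact permutation test of separated against Control, two-sided p = 0.214, BH adjusted p = 0.321). Their part in the calls was not tested.

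Gene lists of cell type markers and of stress, synapse, mitochondrial and other pathways were examined, and 28 of 37 lists had no called gene. Only 0.529% of all tested genes were called, so a list of few genes would mostly hold no call. A count of 0 calls therefore does not show absence of change. Of 8 tested genes for stress hormone receptors and the CRH system, the glucocorticoid receptor Nr3c1 had 0.35 (SE 0.0620, edgeR adjusted p = 0.0191), below the fold threshold, and the mineralocorticoid receptor Nr3c2 had 0.06. Glucocorticoid-induced genes had 0 calls among 16, with 14 below 0 and a median of -0.34. Their sum was 567, 690 and 984 CPM in the Control rats and 562 to 737 CPM in the separated rats, so A1 and A2 lay inside the separated range. The AMPA receptor subunit Gria2 had 0.55 (SE 0.0947, edgeR adjusted p = 0.0188), with no overlap between groups and a fold under 1.5. All separated rats lay above all Control rats in 5.28% of all tested genes. Of 15 tested ionotropic glutamate receptor subunits 5 had a positive and 10 a negative log2 fold change, with a median of -0.06. Slco1a2, an organic anion transporter of the blood-brain barrier, measured 74.1, 65.8 and 63.5 CPM in the Control rats, 103, 123 and 96.98 CPM in the MS rats and 97.5, 91.5 and 94.6 CPM in the EA rats. Its log2 fold change was 0.57 (SE 0.0821, edgeR adjusted p = 0.00965), just short of the fold threshold, with 0.67 in MS and 0.48 in EA rats. Markers of astrocytes, oligodendrocytes, microglia and interneurons had 0 calls, with medians of -0.02, -0.02, -0.17 and 0.00374, and all 10 microglia markers were below 0. DNA methylation and histone deacetylase genes had 0 calls among 23.

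EA and MS rats were compared directly within the 89 genes. No gene had an edgeR adjusted p under 0.05 for EA minus MS, where 3 of all tested genes did (0.0178%), and DESeq2's Wald test gave 4 of its own 170 called genes. An unadjusted p under 0.05 was found for 30 of the 89, against 12.4% of all tested genes. Of these 30 genes 29 lay farther from Control in EA rats than in MS rats, and the other was Acsm3. Over all 89 genes 73 lay farther from Control in EA rats and 16 nearer. The 95% interval of EA minus MS lay within a fold of 1.5 for 36 of the 89 genes, against 59.4% of all tested genes, and the median width of the intervals was 0.70 on the log2 scale. Genes that were shared and bounded in this way numbered 24, among them ATP8, Micu3, Igf1, Spcs3, Bet1, Bcap29, Eef1e1, LOC102550291, LOC100360791 and Rn45s. For the 53 of the 89 genes whose interval reached beyond a fold of 1.5, a treatment difference of that size remains possible.

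**Figure D4:**
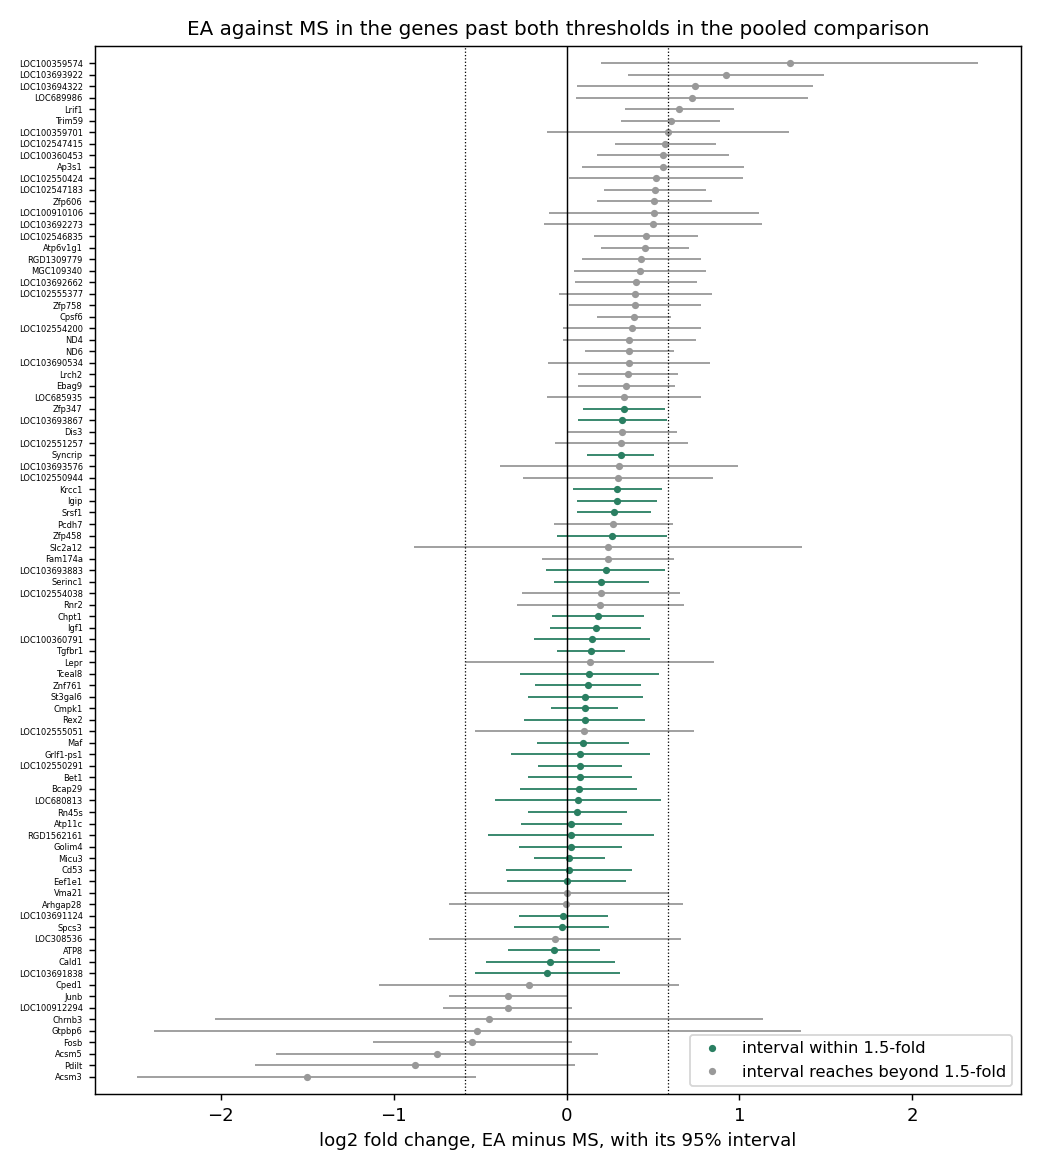
EA minus MS log2 fold change (points) with its 95% interval (lines) for the 89 called genes, ordered by value. Dotted lines mark a fold of 1.5, the 36 genes with an interval between them are green, and most points lie to the right of 0.

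The genes that the study named for a difference between MS and EA rats were not called in the pooled comparison. It averages both separated groups, so moves in opposite directions cancel in it. Dbp had -0.23 (edgeR adjusted p = 0.224), with -0.66 in MS and 0.20 in EA rats. Cplx3 had -0.12 (edgeR adjusted p = 0.720), with -0.66 in MS and 0.42 in EA rats. Syt6 had -0.17 (edgeR adjusted p = 0.646), with -0.69 in MS and 0.35 in EA rats. LOC102555167 had 0.26 (edgeR adjusted p = 0.323), with 0.60 in MS and -0.09 in EA rats. Ucp3, an uncoupling protein of mitochondria, had 2.53 (edgeR adjusted p = 0.0855), with 2, 4 and 0 reads (Control), 43, 22 and 23 reads (MS) and 1, 6 and 5 reads (EA). The study's text places Ucp3 among genes lowered in MS rats and Syt6 among those raised, opposite to the MS values here. Its GO table lists uncoupler activity as raised in MS rats. Rps2-ps2 was not tested, and it had reads mainly in the MS rats B4 (76) and B6 (87).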

How the data were processed

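Prefrontal cortex RNA of 9 rats, 3 per group, was sequenced on an Illumina HiSeq X after removal of rRNA. Per the submitters' processing notes, HISAT2 2.0.4 mapped the reads to Rnor_6.0. The authors deposited whole-number counts per gene without normalization, for 37209 genes. The counting program, its strand setting and its treatment of reads with several locations are not given in the sources used here, so reads of overlapping or near-identical genes cannot be told apart. No column belonged to other samples.

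Counts were analysed with edgeR 4.0.16 in R 4.3.3. The 16837 genes kept by filterByExpr (minimum count 10) were TMM-normalized, and the quasi-likelihood fit held 1 mean for each of the 3 groups. The pooled contrast was the average of MS and EA minus Control, and EA minus MS came from the same fit. P values were adjusted by Benjamini-Hochberg over all genes tested. Genes were called when the adjusted p was under 0.05 and the fold exceeded 1.5, the study's thresholds. The SE of a log2 fold change was its size over the square root of the F statistic. Intervals are at 95%, cover the spread between rats, and for read ratios cover counting error only. The floor was 3 counts. Single values were compared by an exact two-sided permutation test of 6 against 3 rats. The procedure was tested on simulated data.

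Genes named in the text are, per direction, the 12 with the smallest adjusted p and the 5 with the largest fold and at least 1 CPM among called genes whose groups do not overlap. Called members of the gene lists, genes called in MS minus Control or EA minus MS, and genes that the study named were added, and others are marked where they appear. The comparison, lists and rules were chosen with earlier results of these data known. Gene names were matched to RefSeq (GRCr8) for 88.6% of tested genes. The alternatives were other normalizations, filters and tests (limma 3.58.1, DESeq2 1.42.0), thinning to the lowest total, a gene-span offset and each rat left out. The fits without B4, C3 and C16 and with the meningeal covariate were added after the data had been seen. Plots were drawn with matplotlib 3.10.9 in Python 3.11.15.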

Additional observations from a re-analysis of the deposited data

Results flagged for a closer look

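Among the 6 separated rats, 1 rat stood apart by a gap of more than 0.625 of the range in 6 of 53 sets of values examined, and chance gives about 1 in 20. For ND4 the gap was 0.64 and the rat was the EA rat C16, at 358 CPM. For Slco1a2 the gap was 0.65 and the rat was the MS rat B4, at 123 CPM. B4 also stood apart in the summed markers of pericytes and smooth muscle (gap 0.704, 291 CPM), of choroid plexus and ependyma (gap 0.738, 20.2 CPM) and of subcortical neurons (gap 0.64, 311 CPM). For the summed astrocyte markers the gap was 0.742 and the rat was the EA rat C10, lowest at 5097 CPM.

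EA rats differed from MS rats in 3 genes by the test of EA minus MS itself. The log2 fold change of EA minus MS was 0.86 for Dbp (edgeR adjusted p = 0.0470) and 0.77 for Per3 (edgeR adjusted p = 0.0470), both clock genes. Hist2h4a, a histone H4 gene, had 1, 0 and 0 reads (Control), 0, 1 and 0 reads (MS) and 182, 145 and 127 reads (EA), and its fitted value of 8.60 (edgeR adjusted p = 8.68e-06) is no bound, since the other rats were at or under the floor of 3 reads.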

How the results depend on the processing

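The number of called genes stayed between 63 and 96 (89 in the report) with DESeq2 size factors, total counts, a minimum of 10 counts in all rats, limma-trend, bias-adjusted deviances, 1 mean for all separated rats, thinned counts and the gene-span offset. It was 332 with all genes of at least 1 count, 170 with DESeq2, 257 with the likelihood ratio test, 334 without a fold threshold and 2 (ATP8 and LOC100360791) with glmTreat against a fold of 1.2. Shared genes, 61 in the report, numbered 266, 117, 200 and 2 with at least 1 count, DESeq2, the likelihood ratio test and glmTreat, and genes bounded within 1.5-fold, 36 in the report, numbered 71 with at least 1 count. Among each setting's own called genes, those with an adjusted p under 0.05 for EA minus MS, 0 in the report, numbered 13 with at least 1 count, 4 with DESeq2 (Atp6v1g1, Cpsf6, LOC102546835 and LOC102547183), 1 with limma-trend (Hist2h4a), 6 with the likelihood ratio test, and 2 without B4, C3 and C16 (LOC102552913 and RGD1564131). Without those 3 rats 137 genes were called, 66 shared and 14 bounded, and with the meningeal covariate 25, 20 and 7. With each rat left out in turn, called genes ranged from 2 (without A2) to 149 (without B3), shared genes from 2 to 115, bounded genes from 2 to 48, and genes with EA minus MS past the threshold from 0 to 1 (RT1-O2-ps, without B3). The cause of these shifts was not tested. Single values kept their direction, with differences from -2328700 to -901395 for total counts, 0.0862 to 0.191 percentage points for the non-coding share and 0.0291 to 0.225 for the mitochondrial share. Of 870 repeats of the named genes' log2 fold changes, 697 kept the direction and the side of the threshold, 165 kept the direction but lost the call, 8 gained it and none reversed. The correction for GC content was void, because a sequence entry was found for 70.1% of tested genes, under the required 80%. No paired analysis was possible because the groups share fewer than 2 replicate names and the rats are different animals. At these depths a gene with under 3 reads in a rat was not told from 0.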

Other observations

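The 3 higher genes Atp6v1g1, Vma21 and Ap3s1 were picked after their values were seen, and no list of related genes was examined. Atp6v1g1, a subunit of the vacuolar proton pump, measured 51.4, 51.5 and 46.4 CPM in the Control rats, 55.6, 75.5 and 70.9 CPM in the MS rats and 79.0, 102 and 95.6 CPM in the EA rats, with a log2 fold change of 0.66 (SE 0.105, edgeR adjusted p = 0.0121). Against Control it was 0.43 in MS rats, short of the fold threshold, and 0.89 in EA rats. Vma21, an assembly factor of the same pump, measured 1.18, 0.854 and 0.684 CPM in the Control rats, 2.51, 2.25 and 2.16 CPM in the MS rats and 2.22, 2.48 and 2.23 CPM in the EA rats, with 1.33 (SE 0.265, edgeR adjusted p = 0.0271), and against Control it was 1.33 in MS and 1.33 in EA rats. Ap3s1, a subunit of the AP-3 adaptor that sorts cargo to lysosomes and synaptic vesicles, measured 16.3, 16.5 and 18.0 CPM in the Control rats, 22.6, 28.5 and 40.9 CPM in the MS rats and 31.8, 58.7 and 44.5 CPM in the EA rats, with 1.13 (SE 0.201, edgeR adjusted p = 0.0193). Against Control it was 0.86 in MS and 1.41 in EA rats. Without B4, C3 and C16 the log2 fold change of Vma21 was 1.39.

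Hypothalamic peptides were high in a single rat. Oxt, which encodes oxytocin, had 25, 2 and 4 reads (Control), 14, 258 and 4 reads (MS) and 1, 1 and 0 reads (EA), and Avp, which encodes vasopressin, had 29, 3 and 3 reads (Control), 27, 503 and 15 reads (MS) and 9, 13 and 0 reads (EA). B4 held most reads of both. Maf, a transcription factor of interneurons and other cells, picked after its values were seen, measured 28.6, 26.0 and 23.4 CPM in the Control rats, 36.0, 50.7 and 38.2 CPM in the MS rats and 46.1, 43.0 and 44.2 CPM in the EA rats, with a log2 fold change of 0.72 (SE 0.111, edgeR adjusted p = 0.0110), and EA minus MS was 0.09, with a 95% interval from -0.17 to 0.36.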
